A study of Drosophila melanogaster with 2 samples.

Results

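The genes described here are 10 regulators of neural precursor choice in Drosophila melanogaster, examined for peaks of the repressor E(spl)mδ-HLH. They comprise the 4 genes of the achaete-scute family (ac, sc, l(1)sc and ase), the 3 of the atonal family (ato, amos and cato), and the partner genes da, emc and sens. They were chosen by name, out of 13945 protein-coding genes on 6 chromosome arms, and a peak was assigned to a gene when its summit lay in the gene body or within 10 kb of it. Peaks came from chromatin immunoprecipitation and sequencing (ChIP-seq) of whole embryos of both sexes and the strain E(spl)m-delta-GFP, 2 to 12 h old by the source label, since the age field is unreadable. This transgenic line stably expresses E(spl)mδ-HLH with a GFP at its C-terminus, and chromatin was sonicated to fragments of 200 to 800 bp. There was 1 group of 2 biological replicates, and both carried the fusion. A free-text label calls the samples input control, whereas the assay and antibody labels name an immunoprecipitation of the factor and each replicate has peaks called against a separate control. The samples were therefore treated as immunoprecipitated. Which promoter drives the fusion is not given in the labels. In whole embryos, strong occupancy in few cells and weak occupancy in many cannot be told apart.

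Proneural proteins are basic helix-loop-helix (bHLH) activators that give ectodermal cells the potential to become neural precursors. They bind DNA as dimers with Daughterless, the product of da, and Extramacrochaetae, the product of emc, holds them back by forming dimers that cannot bind DNA. In a proneural cluster the chosen precursor signals through Notch to its neighbours, where proteins of the Enhancer of split complex, among them E(spl)mδ-HLH, repress proneural genes and bind proneural proteins. The zinc finger protein Senseless, the product of sens, sustains proneural gene activity in the precursor.

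The deposited lists differ in how much background they hold. The thresholded list held 2750 peaks, and its deposited type names a threshold on agreement between replicates. The pooled list, called on the reads of both replicates together, and the list of each replicate held 30000 peaks apiece and include background by their deposited type. All 2750 thresholded peaks were the strongest of the pooled list, so a place in the thresholded list followed pooled signal. It does not show that each replicate alone ranked a peak as highly. Signal is the authors' enrichment value of a peak, comparable only within its list, and rank 1 is the highest signal of a list. Pooled signals ran from 36.9 to 1477 with a median of 51.1, and the lowest signal in the thresholded list was 117. A high rank number in a list of 30000 therefore marks a weak value.

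The sequences under the members' peaks are shown first, since the results below turn on which short motifs they hold. Each is read 5′ to 3′ on the strand of the gene, from the NCBI Release 6 genome (dm6), and stops before the transcription start site (TSS). Capitals mark any of the searched motifs, namely the class B E-box CACGTG, the class C site CACGCG, the N-box CACNAG, the proneural E-boxes GCAGCTG and GCAGGTG, the Su(H) sites GTGGGAA and ATGGGAA, the GAGA repeat GAGAGAG and the Zelda-type site CAGGTAG, on either strand. CANNTG, which overlaps CACGTG and the proneural E-boxes, and the reordered control GTGCAC were searched but not capitalised. The stretches lie at chr3L:749327-749399 for emc, chr3R:8277914-8278014 for ato, chrX:457212-457312 for the ase peak farther from its TSS and chrX:458132-458232 for the nearer one, all on the plus strand, and at chr3L:13403657-13403757 on the minus strand for sens. These 5 cover the thresholded summits.
emc: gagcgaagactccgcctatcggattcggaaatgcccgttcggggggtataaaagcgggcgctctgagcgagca
ato: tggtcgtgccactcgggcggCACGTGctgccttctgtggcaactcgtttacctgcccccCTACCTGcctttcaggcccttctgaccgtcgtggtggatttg
ase, farther peak: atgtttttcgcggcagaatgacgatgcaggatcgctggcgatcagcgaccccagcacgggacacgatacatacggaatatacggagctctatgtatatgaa
ase, nearer peak: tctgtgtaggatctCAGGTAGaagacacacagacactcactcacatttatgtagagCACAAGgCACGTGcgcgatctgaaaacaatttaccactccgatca
sens: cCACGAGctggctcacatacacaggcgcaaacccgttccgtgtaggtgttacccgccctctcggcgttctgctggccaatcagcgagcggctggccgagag

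Further stretches show genes with no thresholded summit, chosen after their values were seen because a summit of another list lay just upstream of the TSS. They are the stretch under a pooled summit up to the sc start (chrX:395913-396059), and the surroundings of a replicate 1 summit before ac (chrX:369690-369790) and before da (chr2L:10388032-10388104), all on the plus strand.
sc: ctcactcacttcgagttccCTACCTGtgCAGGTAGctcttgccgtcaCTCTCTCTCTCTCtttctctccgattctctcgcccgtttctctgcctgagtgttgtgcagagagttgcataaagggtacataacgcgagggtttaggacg
ac: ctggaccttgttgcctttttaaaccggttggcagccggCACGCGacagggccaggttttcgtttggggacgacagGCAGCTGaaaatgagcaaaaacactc
da: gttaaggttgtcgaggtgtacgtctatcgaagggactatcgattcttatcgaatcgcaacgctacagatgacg

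Thresholded peaks were found at ato, emc, ase and sens and not at the other 6 genes. These 4 of 10 members compare with 43.0% of all protein-coding genes, so the share near the members was close to the background. Within 2 kb of the gene body the count was 2 of 10, against 21.1% of genes. Both of those, ato and emc, had the summit within 100 bp of the TSS, which held for 8.63% of genes. The merged windows of the members, 214.9 kb in all, held 5 thresholded summits, or 0.233 per 10 kb, against 0.205 over the 6 arms. Among the 2750 strongest peaks of replicate 1, 5 members had a summit within 10 kb (42.7% of genes did), and among those of replicate 2, 3 members did (43.8% of genes). The 3 members present in both, ato, emc and da, compare with 34.8% of genes. The thresholded summit farthest from its gene, at ase, lay 3485 bp from the body, and the nearest outside the 10 kb limit lay 13071 bp from ato (signal 154, rank 1537), 11 bp from the TSS of Mcm2. The next, 15099 bp from da, is described below.

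**Figure D1:**
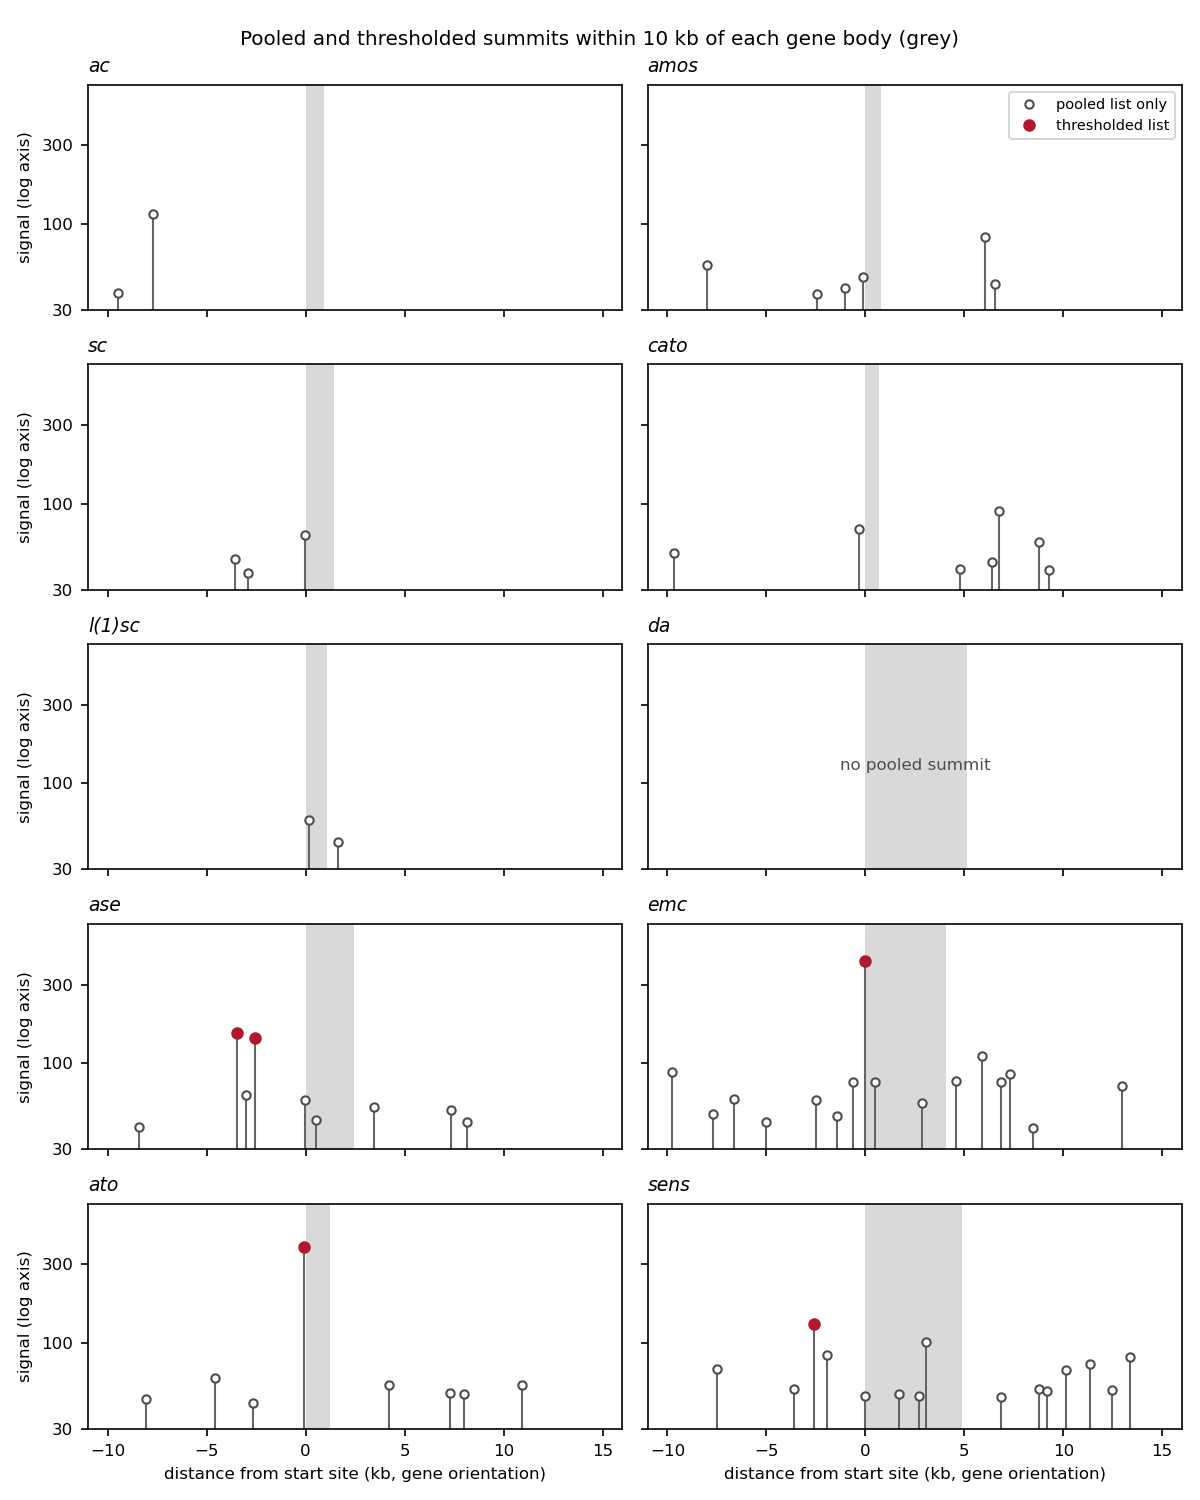
Summits of the pooled list (open circles) and thresholded list (red) around each of the 10 genes, with distance from the TSS in kb along the gene's direction on the x axis and signal on a log y axis; grey marks the gene body. The red points of ato (385) and emc (419) stand at the TSS, those of ase (152 and 142) and sens (130) upstream, and da has no pooled summit.

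In the atonal family, ato carried a strong promoter peak and its relatives did not. The gene ato specifies chordotonal organs and photoreceptors (FBgn0010433, 3R 8278052 to 8279274, plus strand). Its thresholded peak (3R 8277891 to 8277974) reached a signal of 385, rank 140, and its summit was 88 bp before the TSS. Replicate 1 gave it a signal of 239 (rank 140) and replicate 2 one of 146 (rank 188), so the 2 replicates placed it alike. The replicate summits lay 5 bp and 15 bp from the thresholded one. The other 7 pooled summits within 10 kb of ato were weak, with signals from 43.1 to 61.6.

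The gene amos, which specifies olfactory sense organs (FBgn0003270, 2L 18596136 to 18596921, minus strand), had 6 pooled summits and no thresholded one. The strongest of them (signal 83.6, rank 5163) lay 5265 bp downstream of amos and 20 bp from the TSS of CG15160. A summit 104 bp upstream of the amos TSS ranked 18030 in the pooled list and 18141 in replicate 2, and had no match in replicate 1. The gene cato, which acts later in chordotonal precursors (FBgn0024249, 2R 16277685 to 16278396, minus strand), had 7 pooled summits. The strongest of these, rank 4374, lay 313 bp from the TSS of the kinesin gene Khc, and it ranked 10818 in replicate 1 and 2847 in replicate 2. At cato itself a summit 311 bp upstream of the TSS had a pooled rank of 7520 and ranked 7337 in replicate 1. No replicate 2 summit matched it. Neither amos nor cato thus had a summit near its own TSS that both replicates shared.

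In the achaete-scute complex, peaks of the thresholded list were found upstream of ase and nowhere else among the 4 genes. The gene ase is expressed in neural precursors themselves rather than in proneural clusters (FBgn0000137, X 460747 to 463176, plus strand). Signals at its 2 thresholded peaks were 152 for the farther (X 457137 to 457386, rank 1584) and 142 for the nearer (X 458057 to 458306, rank 1835). Their summits lay 3485 bp and 2565 bp upstream of the TSS. By rank, replicate 1 had the farther peak at 1022 and the nearer at 1555, and replicate 2 had them at 3039 and 3287. Both were placed higher in replicate 1, and in replicate 2 neither was among the 2750 strongest. Another summit between them had a pooled rank of 9047 and matched a summit in replicate 1 alone. At the ase TSS itself, a pooled summit 13 bp upstream ranked 10437.

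The proneural genes ac, sc and l(1)sc had few summits of any kind. For ac, which with sc makes the bristle precursors of the fly (FBgn0000022, X 370031 to 370947, plus strand), the pooled list held 2 summits. The stronger had a signal of 114 and rank 2895, just below the weakest thresholded signal of 117, and ranked 3288 in replicate 1 and 2774 in replicate 2. It lay 7706 bp upstream of ac and 5816 bp from the TSS of the pigmentation gene y. All 4 genes of the complex lie within the annotated span of CG32816, so a place in that gene body says little.

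A class C site lies before ac, and a peak covered it in replicate 1 alone. Repression of ac by Hairy, a relative of the E(spl) proteins, is known to act through a class C site upstream of the gene. In the 2000 bp before the ac TSS the letters CACGCG occurred 1 time, with the first base 303 bp upstream (X 369728 to 369733), as the capitals in the ac stretch above show. Over it lay a replicate 1 peak (X 369618 to 369861) of signal 37.4, rank 10182, with its summit 9 bp from the centre of the site. No peak of replicate 2, of the pooled list or of the thresholded list covered the site. The peak was therefore weak and seen in 1 of 2 replicates. The same stretch holds a proneural E-box, GCAGCTG, 266 bp upstream of the TSS. The search of 2000 bp for CACGCG was made at ac alone, so how many other genes hold it there is not known. In the 300 bp before the TSS ac had no CACGCG, and cato was the only member with one.

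At sc (FBgn0004170, X 396060 to 397497, plus strand) the strongest pooled summit lay 22 bp upstream of the TSS, with a signal of 64.7 and rank 8821. It ranked 6837 in replicate 1 and had no match in replicate 2, whose only summit near sc was in the coding exon at rank 18977. At l(1)sc, which acts in embryonic neuroblast formation (FBgn0002561, X 409721 to 410817, plus strand), the strongest pooled summit was in the coding exon 189 bp from the TSS, with a signal of 59.8 and rank 10466. Replicate 1 placed it at rank 10135, and replicate 2 had a summit elsewhere in that exon, 373 bp from the TSS, at rank 4891. Within 100 bp, none of the 3 pooled summits of sc and neither of the 2 of l(1)sc matched a summit in both replicates. For l(1)sc this depended on the distance, since within 200 bp both of its pooled summits had a match in both replicates. Those of sc still had none in replicate 2.

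Among the partner genes, emc had the strongest peak of all 10 members. It encodes the HLH protein without a basic domain that sequesters proneural proteins (FBgn0000575, 3L 749400 to 753492, plus strand). Its thresholded peak (3L 749300 to 749402) reached a signal of 419, rank 112, and the summit was 23 bp before the TSS. Replicate 1 gave it a signal of 284 (rank 95) and replicate 2 one of 141 (rank 212). The window of emc held 16 pooled summits, more than that of any other member, and the other 15 had signals from 40.5 to 111. The next in strength, rank 3031, lay 1803 bp downstream of emc and 194 bp from a TSS of hng3, whose annotated span includes emc.

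The peak at sens was weaker and lay away from the promoter. On the minus strand of 3L (FBgn0002573, 13396228 to 13401125), sens had 1 thresholded peak (3L 13403582 to 13403831) whose signal was 130 at rank 2192. Replicate 1 placed this summit, 2582 bp before the TSS, at rank 1906 and replicate 2 placed it at 2851. A pooled summit 1926 bp upstream (rank 5103) and another in an intron (rank 3572) had matches in both replicates. At the TSS itself a summit 5 bp upstream ranked 4691 in replicate 1, whereas its pooled rank was 17774 and replicate 2 had no match. In all, 15 pooled summits lay in the window of sens.

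The general bHLH partner gene da stood apart because the replicates and the pooled list disagreed over it. In replicate 1 a summit 23 bp upstream of the da TSS (FBgn0267821, 2L 10388105 to 10393228, plus strand) had a signal of 104 and rank 1243. In replicate 2 a summit in a coding exon of da, 2646 bp from the TSS, had a signal of 75.7 and rank 1175. These 2 summits were 2669 bp apart, and neither had a match in the other replicate. The pooled list, made from the same reads, held no summit within 10 kb of da, which was the case for no other member, while 92.1% of protein-coding genes had one. Its nearest summits were at 2L 10376314 and 10408327, leaving a gap of 32.0 kb, and 1.39% of gaps between neighbouring pooled summits were at least that long. The summit at the far end of the gap, 25 bp from the start of Ip259 and RpS27A, ranked 400 in the pooled list, 309 in replicate 1 and 937 in replicate 2. What sets the pooled list apart at da was not tested.

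**Figure D2:**
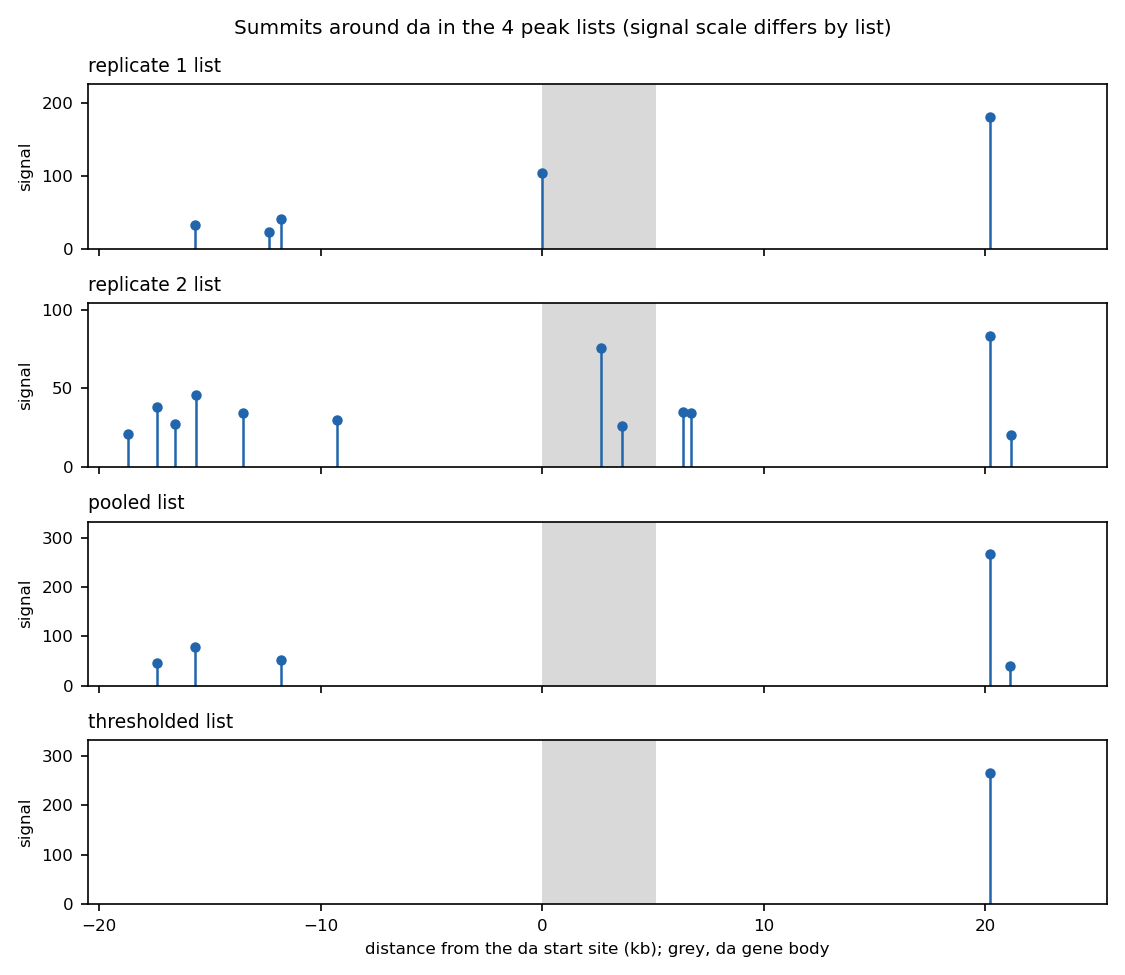
Summits within 20 kb of the da gene body in the 4 lists, with distance from the da TSS in kb on the x axis and each list's own signal on the y axis; grey marks the gene body. Replicate 1 has a summit at the TSS (signal 104) and replicate 2 inside the gene (75.7), while the pooled and thresholded lists are empty over da and all 4 lists share the summit at 20.22 kb.

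Placed among all protein-coding genes, the members spread from near the top to the lower part of the range. Genes with no summit in a list counted as weaker there, and 12843 of 13945 genes had a pooled summit. The strongest pooled summit within 10 kb was weaker than that of emc in 96.6% of genes and weaker than that of ato in 95.8%. In replicate 1 these shares were 97.0% and 95.7%, and in replicate 2 that of emc was 94.5%, with ato slightly higher. For ase the share was 70.5%, for sens 62.8% and for ac 55.9%, and the replicates differed most for ase, at 78.5% and 53.2%. For amos (40.2%), sc (28.1%) and l(1)sc (24.1%) most genes had a stronger summit, in the pooled list and in both replicates. For cato the pooled share was 44.5%, with 32.8% in replicate 1 and 55.2% in replicate 2, so the replicates fell on either side of the middle. The da summits of the replicates exceeded those of 75.3% of genes in replicate 1 and 76.6% in replicate 2. With 2 replicates, the order of emc and ato, which swapped places between replicates, and of ac, ase and sens is not beyond the replicate spread. Over the 9 members with a pooled summit the median strongest signal was 114, against 109 over all genes with one. In 6 of the 9 the strongest summit was nearest to the member's own TSS, and at ac, amos and cato it was nearer to another gene's.

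**Figure D3:**
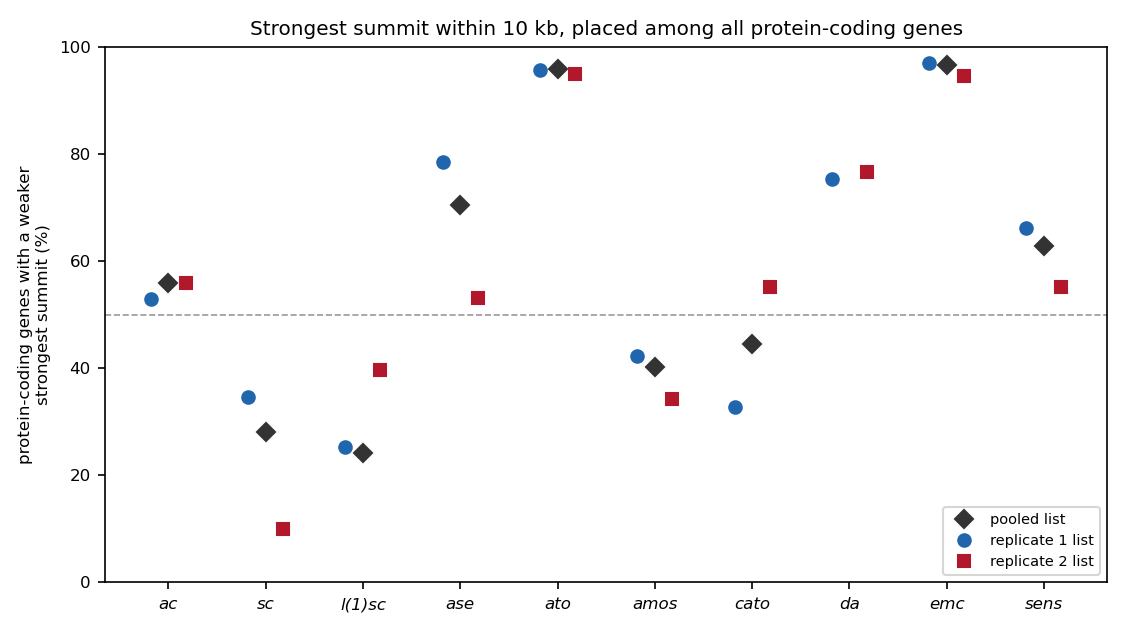
Percentage of protein-coding genes whose strongest summit within 10 kb is weaker than the member's, for the pooled list (diamonds), replicate 1 (circles) and replicate 2 (squares); the dashed line marks 50%. Genes with no summit in a list count as weaker. The points of emc and ato lie above 94% in every list, sc is lowest in replicate 2, and da has replicate points only.

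Members also differed in how many pooled summits surrounded them. The windows of emc and sens were dense, with 6.64 and 6.02 pooled summits per 10 kb, above 94.7% and 91.0% of genes. The window of ato, with a peak nearly as strong as that of emc, held 3.77 per 10 kb, above 61.8% of genes. Those of ac (0.96), l(1)sc (0.95) and sc (1.4) were sparse. The median over the 10 members was 3.13 per 10 kb, against 3.1 over all genes. Of the 68 pooled summits of the members, 25 (36.8%) had a match in both replicates, close to the 37.6% of the whole pooled list.

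**Figure D4:**
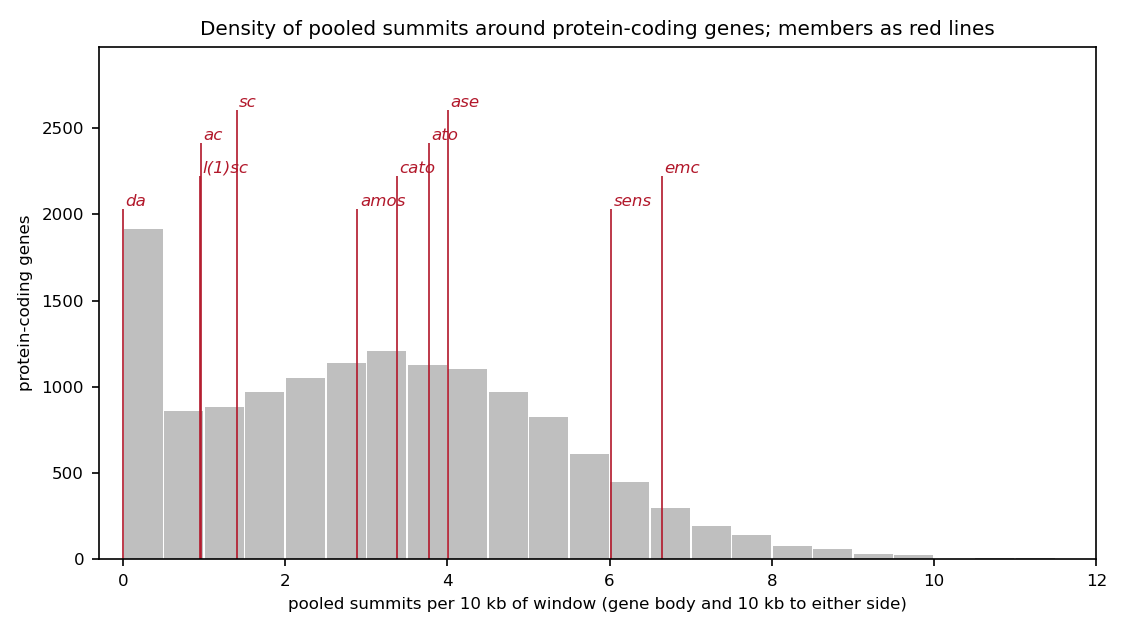
Histogram of pooled summits per 10 kb over 13945 protein-coding genes, each with its gene body and 10 kb to either side, in bins of 0.5; red lines mark the 10 members. The 3 proneural genes ac, sc and l(1)sc lie between 0.95 and 1.4, the atonal family and ase between 2.89 and 4.01, and sens and emc above 6.

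The nearer ase peak and the ato promoter peak shared a pair of motifs. Within 50 bp of the summit, both held the class B E-box CACGTG, a preferred site of E(spl) proteins in vitro, and the Zelda-type site CAGGTAG, bound by the factor that opens chromatin in the early embryo. At ato the centres of these sites lay 27 bp and 12 bp from the summit, and at ase 16 bp and 33 bp. In ato the Zelda-type site is on the reverse strand and reads CTACCTG in the stretch above. Over all 2750 thresholded windows CACGTG was found in 3.35% and CAGGTAG in 0.982%. Both together occurred in 3 windows (0.109%), namely these 2 and a window on 3L 758 bp from the TSS of CG44838, at rank 1866. This pairing was noticed after the windows were seen, and the search does not show that either site is occupied.

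The other thresholded windows of the members held few of the searched motifs. The nearer ase window also had the N-box CACAAG 9 bp from its summit, directly before the CACGTG. The sens window had the N-box CACGAG, at its edge, 46 bp from the summit. The N-box occurred in 17.1% of all thresholded windows. The emc window and the farther ase window held none of the 11 motifs. The class C site, found in 8.47% of all thresholded windows, and the proneural E-boxes GCAGCTG (4.47%) and GCAGGTG (1.38%) were in none of the 5. The GC content of the 5 windows was 64.4% at sens, 62.4% at ato, 59.4% at emc and 50.5% and 45.5% at ase, against a mean of 51.2% (SD 6.56) over all thresholded windows.

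The promoters of the members, read as the 300 bp before the TSS, differed in their motifs irrespective of peaks. CAGGTAG was present before ac, sc, l(1)sc and ato, 4 of 10, while 1.80% of 13945 promoters hold it. At sc it occurred 3 times, and 2 of these copies, on opposite strands, appear in the sc stretch above beside a run of overlapping GAGA repeats. GAGAGAG was present before sc, ase, amos and emc, against 5.89% of promoters. CACGTG was present before ato and amos, against 3.38%, and the proneural E-boxes were present before ac alone. CACGCG was present before cato alone, against 4.98%, and the Su(H) site GTGGGAA before ac alone, against 3.51%. The N-box was present before l(1)sc and sens, while 27.8% of promoters hold it. CANNTG was present before 9 of 10, against 75.1%, and ATGGGAA and GTGCAC before none. For amos the CACGTG began 76 bp upstream of the TSS, and the nearest pooled summit was the weak one at 104 bp. The da stretch holds none of the capitalised motifs.

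Genes that act before and after the proneural step were compared with the members by the same rule. Of 8 prepattern regulators, which set where proneural genes are switched on, 6 had a thresholded summit within 10 kb. The strongest was in an intron of ush (signal 596, rank 41), which encodes a cofactor of Pannier, followed by the promoters of hry (346, rank 184), which encodes Hairy, and vnd (228, rank 610), a neuroectoderm column gene, and by mirr (175), an Iroquois gene, 8737 bp upstream of it. Of 11 genes of sense organ precursors and their signalling, 8 had one, led by the Notch ligand gene Delta (263, rank 414), neur (258), which encodes the ligase that activates Delta, insc (243), for asymmetric division, and ttk (226), a repressor of neural fate. The neur summit was nearer to a TSS of tgo. Of 13 other bHLH genes 4 had one, crp (351, rank 176), nau (146), sage (139) and net (133), with the summits of nau and sage nearer to CG10365 and ATP6AP2. The background for these counts is the 43.0% of genes given above. Windows include the gene body, so long genes have wider ones, and gene length was not matched. Among the genes counted but not named, some summits also lay nearer to another gene's TSS.

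All 7 bHLH repressor genes of the Enhancer of split complex had thresholded summits within 10 kb, from 7 at E(spl)m8-HLH to 20 at E(spl)mbeta-HLH. These windows overlap and share peaks, so the 7 genes are not independent. The strongest of these summits, shared by the windows of E(spl)mdelta-HLH, E(spl)mgamma-HLH and E(spl)mbeta-HLH, had a signal of 1431, against 419 for the strongest summit of the members. The lowest value for the 7 genes was 666, at E(spl)m3-HLH. No test was run on these lists, whose genes were chosen by name with earlier results of these data known.

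**Figure D5:**
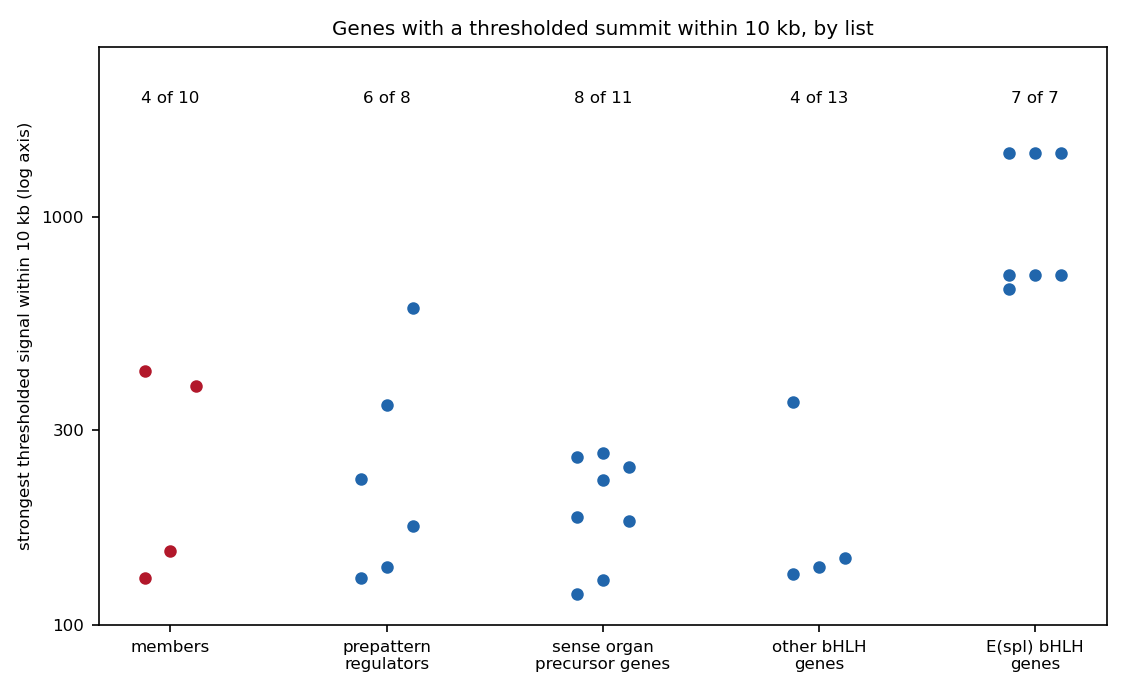
Signal of the strongest thresholded summit within 10 kb of each gene (log y axis) for the members and 4 further gene lists; numbers above give how many genes of each list have such a summit. The members' values run from 130 to 419 and those of the E(spl) bHLH genes from 666 to 1431, with genes that share a peak drawn at the same height.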

How the data were processed

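Chromatin immunoprecipitation sequencing was done in 2 biological replicates of whole embryos. The aligner, the peak caller and the threshold on the irreproducible discovery rate were not given in the sources used here. As deposited by the authors, the 4 peak lists use assembly dm6, each except the thresholded list called against the same control alignment, per the deposited file listing. The signal per peak is the authors' own enrichment value and was compared only within a list. The deposited −log10 q value sat at its ceiling in 2029 of 2750 thresholded peaks and was not used for ranking. The summit offset, another deposited column, gave the summit as peak start plus offset. Read depth is unknown, so no interval was computed.

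Gene bodies and start sites came from Ensembl release 115, and bases were read from NCBI's Release 6 genome of that assembly. All 49 listed genes matched, 1 of them under a newer symbol. Summits in the gene body or within 10 kb of it were assigned to a gene. Summits of different lists matched within 100 bp. Motifs were searched on both strands within 50 bp of a summit, and, chosen after values were seen, in the 300 bp before each start site. Members and lists were chosen with earlier results of these data known. All members are named, with up to 4 genes per further list by highest signal. The assignment, matching and motif search were tested on simulated data. The design allowed no comparison between conditions, so no p-value was computed. Python 3.11.15, numpy 2.4.6 and pandas 2.3.3 were used, with figures drawn in matplotlib 3.10.9. Alternatives were other distances, a stricter threshold, each replicate alone, other matching rules and a wider motif window.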

Additional observations from a re-analysis of the deposited data

How the results depend on the processing

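The count of members with a thresholded summit depended on the distance allowed and on the threshold. Within 2 kb it was 2 members with 2 summits, and among the strongest 1000 thresholded peaks it was again 2 members with 2 summits, each time ato and emc. With 1 replicate left out at a time it ranged from 3 to 5 members and from 4 to 6 summits. At 5 kb and 20 kb, and with any base pair of the peak counted, both counts stayed within 1.5 times the values reported. Of the 68 pooled summits of the members, those with a match in both replicates rose to 39 when summits within 200 bp counted. For any shared base pair they rose to 41. The share of the whole pooled list under these looser rules was not computed, so the rise says nothing particular about the members. Each member's strongest pooled summit was also given a percentile among the 30000 pooled peaks, which is not the share of genes used above. The median of this percentile was 90.3 at 10 kb, 72.8 within 2 kb and 83.8 within 5 kb. With 1 replicate left out it was from 89.0 to 90.5. No value exists for da, which has no pooled summit, and at 2 kb and 5 kb none exists for ac. With windows of 100 bp to either side, CANNTG occurred in 80.0% of the members' summit windows, against 71.2% of all thresholded windows. GAGAGAG occurred in 20%, against 17.5%. The other 9 motifs kept the same share among the members. Over all thresholded windows, CACGTG rose to 5.75% and the N-box to 29.5%. Among single members, this percentile within the pooled list moved at 2 kb for ase, sens and amos by more than the spread between replicates. It was 65.2 for ase (94.7 at 10 kb), 88.1 for sens (92.7) and 39.9 for amos (82.8, and 39.9 again at 5 kb). For sc it was 36.7 without replicate 1 and 77.2 without replicate 2 (70.6 with both). For l(1)sc it went the other way, to 83.7 without replicate 1, and was 66.2 without replicate 2 (65.1 with both). With no read depth, a missing peak cannot be told from shallow coverage.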

Other observations

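The mismatch between replicate and pooled lists seen at da was rare. Among the 2750 strongest peaks of replicate 1, 14 (0.509%) lay more than 2000 bp from any pooled summit, and the same number held for replicate 2. Beyond 10000 bp the counts were 10 and 5. The da summits were among these in both replicates, at 11768 bp and 14437 bp from the nearest pooled summit. In replicate 1 the highest ranked of the 14 were on chromosome 4, nearest to RpS3A (rank 148), and on 2L nearest to bsk (rank 313), and in replicate 2 on 2R nearest to ap (rank 260). Unlike at da, the replicate summits matched within 100 bp near CG12391 (2R 11150110 and 11150139) and Vps13D (3L 12755158 and 12755112). The pooled list thus also lacked peaks that both replicates shared. The summit nearest to bsk lay at 2L 10249838, and another of replicate 1, nearest to mthl15, at 2L 10238302. A replicate 2 summit nearest to nmd lay at 2L 10304487. The da summits lay on the same arm, at 10388082 and 10390751. The nearest pooled summit was 40686 bp away at bsk, 29150 bp at mthl15 and 2409 bp at nmd. These summits were grouped by place after their values were seen, and whether the mismatches are connected was not tested. Further replicate 1 summits far from any pooled summit lay on chromosome 4, nearest to dati and lgs.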
